A study of Homo sapiens with 9 samples.

Results

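The genes described here are 10 genes of the insulin and IGF1 pathway that report on its feedback loop. They are the transcription factors FOXO1, FOXO3 and FOXO4, the receptors INSR and IGF1R, the docking proteins IRS1 and IRS2, the PI3K inhibitor PIK3IP1, and the growth restraints CCNG2 and TXNIP. They were chosen by symbol, with earlier results of these data known. Each symbol was matched to its versioned Ensembl identifier in GENCODE release 29, and all 10 were among the 58721 genes counted. RNA of H1299 cells was sequenced in 9 libraries, 3 per group. H1299 is an established human line of non-small cell lung carcinoma, and the title of the series places the work in the setting of disturbed circadian rhythm.

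Insulin and IGF1 bind the receptor tyrosine kinases INSR and IGF1R, which phosphorylate the docking proteins IRS1 and IRS2 and so recruit the lipid kinase PI3K and activate the kinase AKT. AKT phosphorylates FOXO factors, which then bind 14-3-3 proteins and stay in the cytoplasm. When growth factors are scarce, FOXO factors enter the nucleus, raise transcription of receptors and docking proteins (the feedback arm) and of growth restraints such as CCNG2. RNA levels do not show how much of a FOXO protein is phosphorylated or nuclear.

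The melatonin group was given 0.1 mM melatonin, a pineal hormone. The siCLOCK group was given siRNA against CLOCK, a transcription factor of the circadian clock that binds E-boxes. The control group was kept in serum free medium. The labels name no serum condition for the treated groups, no non-targeting siRNA, no vehicle and no treatment time. They call the samples independent without saying whether they were separate cultures, so the spread behind each p-value may be technical. All groups are 1 cell line, and a change in RNA per cell cannot be told apart from a change in the mix of cells.

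Gene counts ranged from 15384539 to 19192962 per library. CLOCK had 20.9, 32.0 and 38.1 CPM (reads of a gene as a share of its library, after TMM scaling) in siCLOCK replicates 1 to 3, against 39.0, 38.6 and 44.4 in controls, a log2 fold change of -0.42 that did not pass (edgeR adjusted p = 0.340). The library labelled siCLOCK replicate 3 thus stood at 93.8% of the control mean, and whether its label is right was not tested. That library and the 3 melatonin libraries had 2.24% to 2.34% unmapped reads, against 1.22% to 1.36% in the other 5. The sets divided by this share alone are called technical sets here, and the cause of the difference was not tested. The melatonin group lies wholly in 1 set and the control group wholly in the other, so the set and melatonin cannot be told apart in that comparison except through siCLOCK. KRT8, KRT18 and VIM, markers of epithelial and mesenchymal cells, were abundant, while EPCAM had 4 to 9 reads and CDH1 0 to 2. These 5 genes summed to 1819 to 1875 CPM in melatonin libraries, 2231 to 2450 in siCLOCK libraries and 2158 to 2499 in controls. VIM alone had 1466 to 1527, 1797 to 1952 and 1726 to 2018 CPM in the same order, so the sum mainly follows VIM. The sum does not show the mix of epithelial and mesenchymal cells, and its part in the results was not tested.

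Short stretches of promoter show which binding motifs lie next to these genes. They come from RefSeq windows of 250 bases before to 50 bases after each start site (build GRCh38.p14), where all 10 genes had at least 1 window and 15 windows in all. The FOXO core motif GTAAACA, searched on both strands, was in 3 of these 15 windows and in 3.42% of the 35116 windows of all genes. The E-box CACGTG, which reads alike on both strands, was in 2 of 15 windows and in 7.26% of all windows. The carbohydrate response element, which the glucose-sensing Mondo factors bind, was searched on both strands as CACGNG, any 5 bases and CACGNG again. It was in 1 of 15 windows, a window of TXNIP, itself a known target of these factors, and in 0.0570% of all windows. Capitals mark the motif.
CCNG2, E-box, chr4:77157147-77157206, plus strand: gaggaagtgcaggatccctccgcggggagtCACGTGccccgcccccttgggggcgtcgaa
IRS1, E-box, chr2:226799771-226799800, minus strand: gcgcggaggctccgtCACGTGtttttctcc
FOXO4, FOXO core, chrX:71095862-71095891, plus strand: ccccggcgagtgGTAAACAgagacgtcagg
PIK3IP1, FOXO core on the opposite strand, chr22:31292455-31292484, minus strand: ctaaagagaggcTGTTTACcagaacagcat
TXNIP, FOXO core then carbohydrate response element, chr1:145996621-145996733, minus strand: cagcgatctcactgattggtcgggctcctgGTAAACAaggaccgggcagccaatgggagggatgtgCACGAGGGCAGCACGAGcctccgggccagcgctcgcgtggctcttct
The E-box began 30 bases before the RefSeq start site of CCNG2 (chr4:77157207) and at base 36 after that of IRS1 (chr2:226799820). The GENCODE spans given below start elsewhere. By those spans the E-box of CCNG2 lies inside the gene and that of IRS1 before its start. Neither gene passed with siCLOCK against control (edgeR adjusted p = 0.954 for CCNG2 and 0.561 for IRS1). In that comparison CLOCK itself did not pass either (adjusted p = 0.340), and 0.122% of all genes did. Whether the motif had a part in any change was not tested. Of these motifs, none was in the windows of FOXO1, FOXO3, INSR, IGF1R and IRS2. A match is a description of letters, and occupancy by CLOCK or by a FOXO factor was not measured.

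Levels between genes were compared per length, as TMM-scaled CPM per kilobase of exon averaged over the 9 libraries. The length took in all annotated exons of a gene. Which transcripts were in use was not measured, so the order between genes depends on that choice. IRS1 was highest at 8.61, followed by FOXO3 at 6.94 and CCNG2 at 5.76, all above the median of 3.66 over the 16441 genes tested. FOXO4 at 3.24, IGF1R at 2.45 and INSR at 2.44 lay below that median. FOXO1 at 0.941 and PIK3IP1 at 0.620 were low, and IRS2 and TXNIP were near 0. The order held in 9 of 9 libraries for each pair of neighbours down to IRS2, except that IGF1R exceeded INSR in 6 of 9. The ranges over libraries overlapped for IRS1 and FOXO3, for FOXO3 and CCNG2, for IGF1R and INSR, and for FOXO1 and PIK3IP1.

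**Figure D1:**
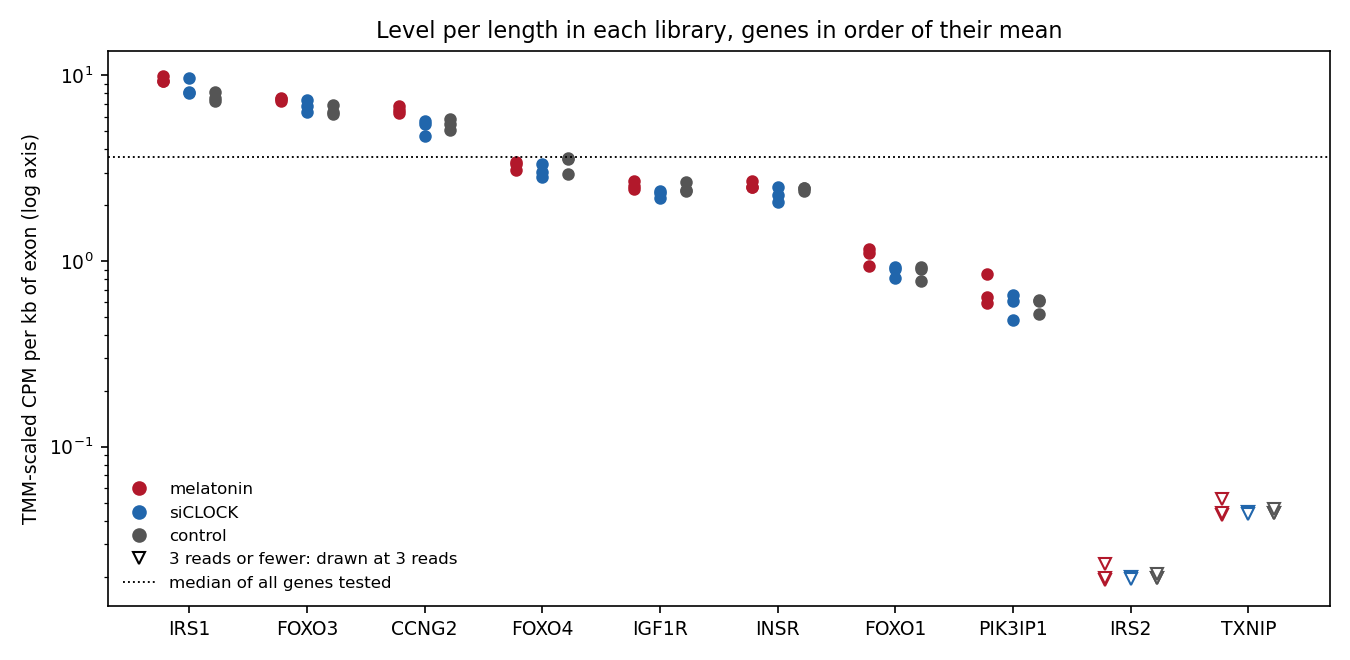
Level per length (TMM-scaled CPM per kilobase of exon, log axis) of the 10 genes in each of the 9 libraries, in order of the mean, with open triangles for libraries at 3 reads or fewer. IRS1, FOXO3 and CCNG2 lie above the dotted median of all genes tested (3.66), while IRS2 and TXNIP lie at or under the level of 3 reads.

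IRS2 and TXNIP were too low to be tested, and the other 8 genes passed the filter on low counts. IRS2, the docking protein that FOXO1 raises in fasted liver (ENSG00000185950.8, chr13:109752698-109786568), had 0, 3 and 1 reads in melatonin libraries, 1, 1 and 3 in siCLOCK libraries, and 0, 2 and 1 in controls. TXNIP, an arrestin-like protein that binds thioredoxin and restrains glucose uptake (ENSG00000265972.5, chr1:145992435-145996600), had 0, 1 and 1 reads in melatonin libraries and 0 in all siCLOCK and control libraries. In no library did either gene exceed 3 reads, which corresponds to 0.155 to 0.189 CPM, so no fold change is given. A difference between groups was not detectable at this depth. The carbohydrate response element printed above for TXNIP therefore lies in the promoter of a gene with 2 reads in all.

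In the comparison of melatonin with control, IRS1 and CCNG2 rose, by 1.243-fold and 1.199-fold. The other 6 genes tested did not pass. Among all 16441 genes tested, 23.1% passed in this comparison, 11.0% higher and 12.1% lower, and at the share of higher genes 8 genes would give 0.877 calls. Libraries of the groups did not overlap for 5 of 8 genes (FOXO1, FOXO3, INSR, IRS1 and CCNG2), all higher with melatonin. Of all genes 21.9% were higher in every melatonin library and 21.4% lower. The median log2 fold change was 0.23 over the 8 genes and 0.011 over all genes. These are descriptions of genes chosen with earlier results of these data known, and no test set the 8 genes against the rest.

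In the comparison of siCLOCK with control, none of the 8 genes passed (edgeR), and DESeq2 and limma-voom gave 0 as well. Of all genes 0.122% passed, 0.0547% higher and 0.0669% lower, and 1 of the 8, IRS1, had an unadjusted p under 0.05. Only IGF1R had libraries that did not overlap, lower with siCLOCK. Of all genes 5.06% were lower in every siCLOCK library and 5.75% higher. In the comparison of melatonin with siCLOCK, CCNG2 passed and 7 genes did not, where 17.5% of all genes passed, 7.43% higher and 10.1% lower. FOXO1, INSR, IGF1R and CCNG2 were higher in every melatonin library, as were 16.8% of all genes, while 17.4% of all genes and none of the 8 were lower. The comparisons share libraries, so they are not separate evidence.

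**Figure D2:**
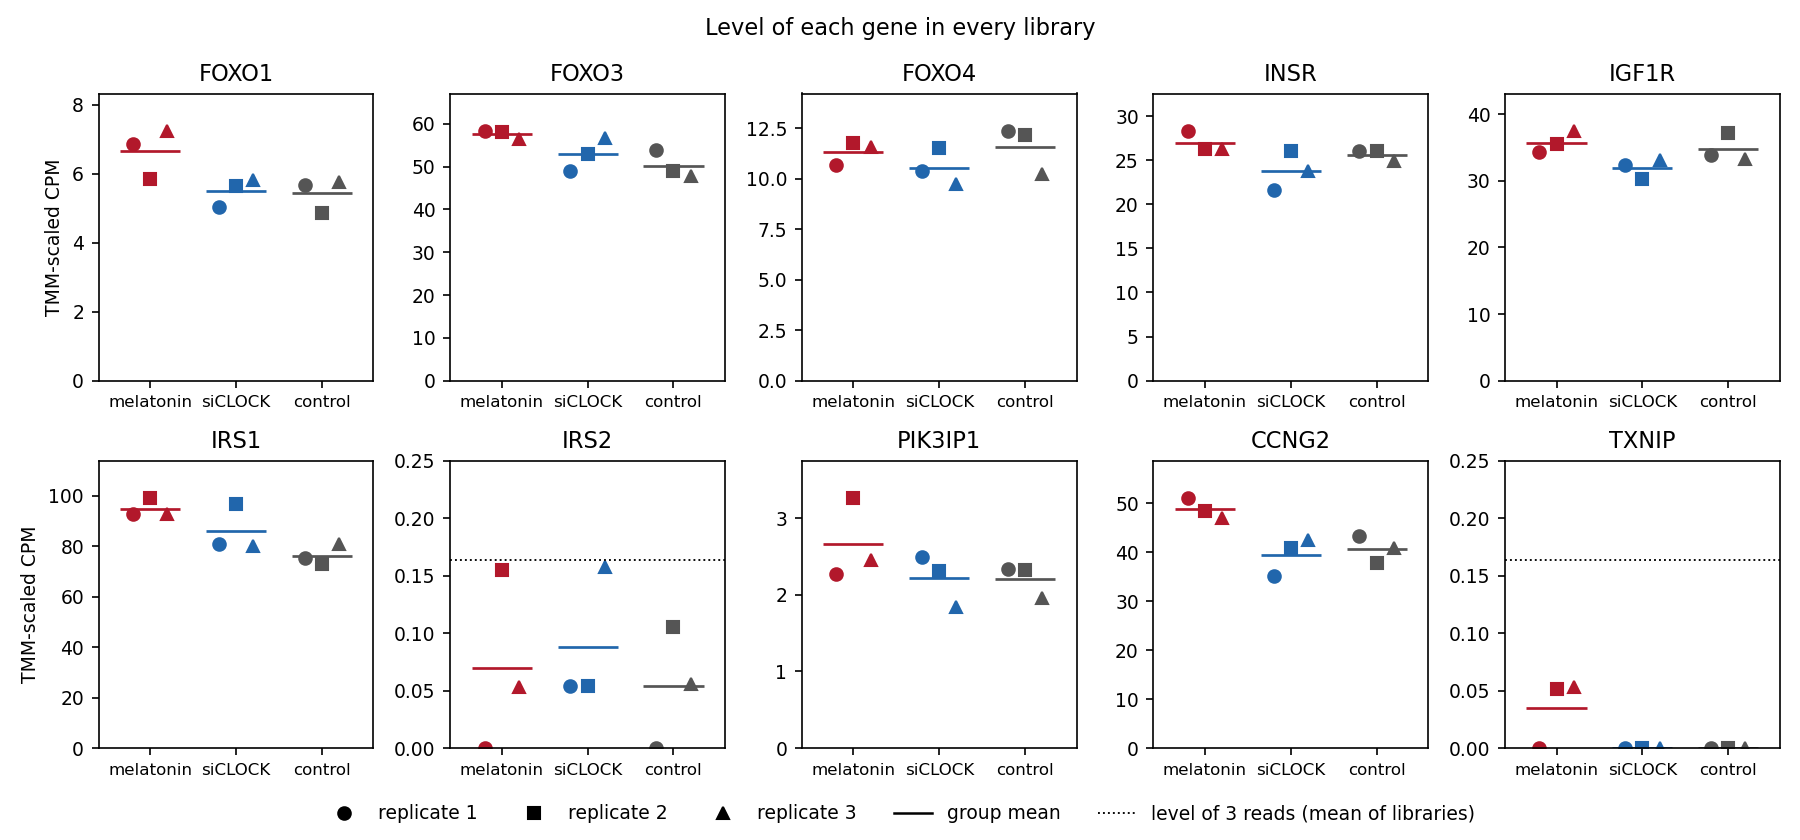
TMM-scaled CPM of each of the 10 genes in every library, with a separate linear axis from 0 for each gene, symbols for replicate number and a bar for the group mean. IRS1 (92.7 to 98.9 against 72.8 to 80.8) and CCNG2 (47.0 to 51.0 against 37.8 to 43.4) are higher in every melatonin library than in any control library, and IRS2 and TXNIP stay at or under the dotted level of 3 reads.

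Among the FOXO factors, FOXO3 was the most abundant. FOXO3 (ENSG00000118689.14, chr6:108559835-108684774), linked to stress resistance and to arrest of the cell cycle, had 58.3, 58.0 and 56.5 CPM in melatonin libraries, 48.9, 53.0 and 56.8 in siCLOCK libraries, and 53.8, 48.9 and 47.9 in controls. Every melatonin library exceeded every control, and the highest siCLOCK library, the one labelled replicate 3, lay within the melatonin range. The log2 fold change of melatonin against control was 0.20 (SE 0.074), which just missed the threshold (edgeR adjusted p = 0.0582). FOXO3 passed in 5 of 21 alternatives, among them the fit without that library (adjusted p = 0.0390 with siCLOCK replicates 1 and 2 kept). With a term for the technical set the change was 0.042 (adjusted p = 0.899).

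FOXO1 (ENSG00000150907.7, chr13:40469953-40666597), the main FOXO effector of insulin in liver, had 6.87, 5.84 and 7.25 CPM in melatonin libraries, 5.03, 5.64 and 5.82 in siCLOCK libraries, and 5.68, 4.87 and 5.78 in controls. All 3 melatonin libraries lay above all others, by 0.014 CPM at the closest. The log2 fold change was 0.29 (SE 0.13) for melatonin against control and 0.27 (SE 0.13) for melatonin against siCLOCK, and neither passed (edgeR adjusted p = 0.127 and 0.168). With a term for the technical set the changes were 0.16 (SE 0.24, adjusted p = 0.779) and 0.19 (SE 0.18, adjusted p = 0.629). These values rest on 92 to 136 reads per library. FOXO1 shares 4.32% of its exon bases with the non-coding gene LINC00598, and reads there cannot be assigned to 1 gene.

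FOXO4 (ENSG00000184481.16, chrX:71096197-71103535), the X-linked member of the family, had 10.7, 11.8 and 11.6 CPM in melatonin libraries, 10.4, 11.5 and 9.76 in siCLOCK libraries, and 12.4, 12.2 and 10.2 in controls. The 3 groups overlapped. Its log2 fold change was -0.030 for melatonin against control (95% interval -0.25 to 0.19) and -0.14 for siCLOCK against control (-0.36 to 0.086), with edgeR adjusted p = 0.874 and 0.818. FOXO3B and FOXO1B, near-identical intronless copies on other chromosomes, had 80 to 128 and 3 to 12 reads, and reads that map to several places were left out of all these counts, so the levels of FOXO3 and FOXO1 are uncertain to that extent.

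The ratio of FOXO1 to FOXO3 per length, which does not depend on library scaling, was 0.146, 0.125 and 0.159 in melatonin libraries, 0.127, 0.132 and 0.127 in siCLOCK libraries, and 0.131, 0.123 and 0.150 in controls. The 3 groups overlapped, and the siCLOCK libraries lay closest together. An exact two-sided permutation test gave p = 0.6 for melatonin against control, 0.4 for melatonin against siCLOCK and 0.8 for siCLOCK against control, where the smallest p that 3 against 3 libraries allow is 0.1.

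INSR, the insulin receptor (ENSG00000171105.13, chr19:7112255-7294034), had 28.3, 26.2 and 26.3 CPM in melatonin libraries, 21.6, 26.1 and 23.7 in siCLOCK libraries, and 26.0, 26.0 and 24.9 in controls. The melatonin libraries were above all controls, by 0.243 CPM at the closest, with a log2 fold change of 0.071 (95% interval -0.10 to 0.25, edgeR adjusted p = 0.586). Against siCLOCK the change was 0.18 (SE 0.084, adjusted p = 0.155).

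IGF1R, the receptor of IGF1 and IGF2 (ENSG00000140443.14, chr15:98648539-98964530), had 34.2, 35.4 and 37.5 CPM in melatonin libraries, 32.4, 30.3 and 33.1 in siCLOCK libraries, and 33.8, 37.2 and 33.3 in controls. It was the 1 gene of the 10 whose siCLOCK libraries all lay below the controls, by 0.159 CPM at the closest. The log2 fold change of siCLOCK against control was -0.12 (SE 0.077), with edgeR adjusted p = 0.746, and that of melatonin against siCLOCK was 0.16 (SE 0.077), with adjusted p = 0.161. Melatonin and control libraries overlapped (0.040, 95% interval -0.12 to 0.20).

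The receptors had close to equal levels per length of annotated exon. INSR to IGF1R was 1.01 ± 0.0849 in melatonin libraries, 0.998 ± 0.133 in siCLOCK libraries and 0.986 ± 0.0479 in controls (SD, n = 3 each, exact permutation p = 0.8 for melatonin against control and 1 for siCLOCK against control).

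IRS1, the docking protein that carries the signal of both receptors to PI3K (ENSG00000169047.5, chr2:226731317-226799759), had 92.8, 98.9 and 92.7 CPM in melatonin libraries, 80.8, 96.8 and 80.2 in siCLOCK libraries, and 75.2, 72.8 and 80.8 in controls. The melatonin libraries exceeded every control by at least 11.9 CPM. Of the siCLOCK libraries, replicate 2 lay within the melatonin range and the other 2 lay near the highest control. IRS1 rose with melatonin against control by 0.31 on the log2 scale (SE 0.077, edgeR adjusted p = 0.00600), with 1375 to 1914 reads per library. It passed in all 21 alternatives, with adjusted p between 8.9e-05 and 0.0462, and with a term for the technical set the log2 fold change was 0.46 (SE 0.13, adjusted p = 0.0388). That term is estimated only from the library labelled siCLOCK replicate 3 against siCLOCK replicates 1 and 2, so the value leans on how those 2 libraries differ from controls.

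Against control, siCLOCK gave an IRS1 log2 fold change of 0.17 (SE 0.077), with an unadjusted p of 0.0366 and an edgeR adjusted p of 0.561. Leaving out the library labelled siCLOCK replicate 3 gave 0.21 (adjusted p = 0.285), and leaving out siCLOCK replicate 2 gave 0.078 (adjusted p = 0.840). Melatonin against siCLOCK gave 0.14 (SE 0.076, adjusted p = 0.214), and 0.24 (adjusted p = 0.0406) without siCLOCK replicate 2. Within the second technical set, IRS1 stood at 92.7 to 98.9 CPM in the 3 melatonin libraries and at 80.2 in the library labelled siCLOCK replicate 3. That library had CLOCK near the control level, so it is not known to stand for a knockdown.

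PIK3IP1, a membrane protein that binds the catalytic subunit of PI3K and inhibits it (ENSG00000100100.12, chr22:31281593-31292534), had 2.27, 3.25 and 2.45 CPM in melatonin libraries, 2.49, 2.31 and 1.84 in siCLOCK libraries, and 2.33, 2.33 and 1.96 in controls. Melatonin replicate 2 was the highest of the 9 and the groups overlapped. With 35 to 63 reads per library, the log2 fold change of melatonin against control was 0.27 with a 95% interval of -0.14 to 0.68 (edgeR adjusted p = 0.337), and that of siCLOCK against control was -0.0020 with an interval of -0.42 to 0.42. With a term for the technical set the change of melatonin against control was 0.66 (SE 0.36, adjusted p = 0.333). PIK3IP1 shares 36 exon bases with the antisense gene PIK3IP1-AS1, and reads on those bases cannot be told apart in unstranded counts.

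CCNG2, an unconventional cyclin that slows the cell cycle and is raised by FOXO factors (ENSG00000138764.14, chr4:77157151-77433388), had 51.0, 48.5 and 47.0 CPM in melatonin libraries, 35.2, 40.8 and 42.6 in siCLOCK libraries, and 43.4, 37.8 and 40.9 in controls. Every melatonin library lay above the 6 others, and siCLOCK and control libraries overlapped. CCNG2 rose with melatonin by 0.26 on the log2 scale against control (SE 0.082, edgeR adjusted p = 0.0264) and by 0.30 against siCLOCK (SE 0.082, adjusted p = 0.0152). The log2 fold change of siCLOCK against control was -0.042 (95% interval -0.21 to 0.13, adjusted p = 0.954).

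The CCNG2 calls depended on single libraries. Against control it passed in 13 of 21 alternatives, and it was lost without control replicate 2 (adjusted p = 0.135), control replicate 3 (0.0565), or melatonin replicate 1 (0.122), 2 (0.0816) or 3 (0.0558). With a term for the technical set the log2 fold changes were 0.097 against control (adjusted p = 0.766) and 0.20 against siCLOCK (adjusted p = 0.324). In the second technical set the melatonin libraries had 47.0 to 51.0 CPM and the library labelled siCLOCK replicate 3 had 42.6, a contrast that depends on a label its CLOCK level does not bear out. Against siCLOCK the call was lost without siCLOCK replicate 1 (adjusted p = 0.0550), melatonin replicate 1 (0.0792) or melatonin replicate 2 (0.0548), and with siCLOCK replicates 1 and 2 alone the change was 0.36 (adjusted p = 0.00384).

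**Figure D3:**
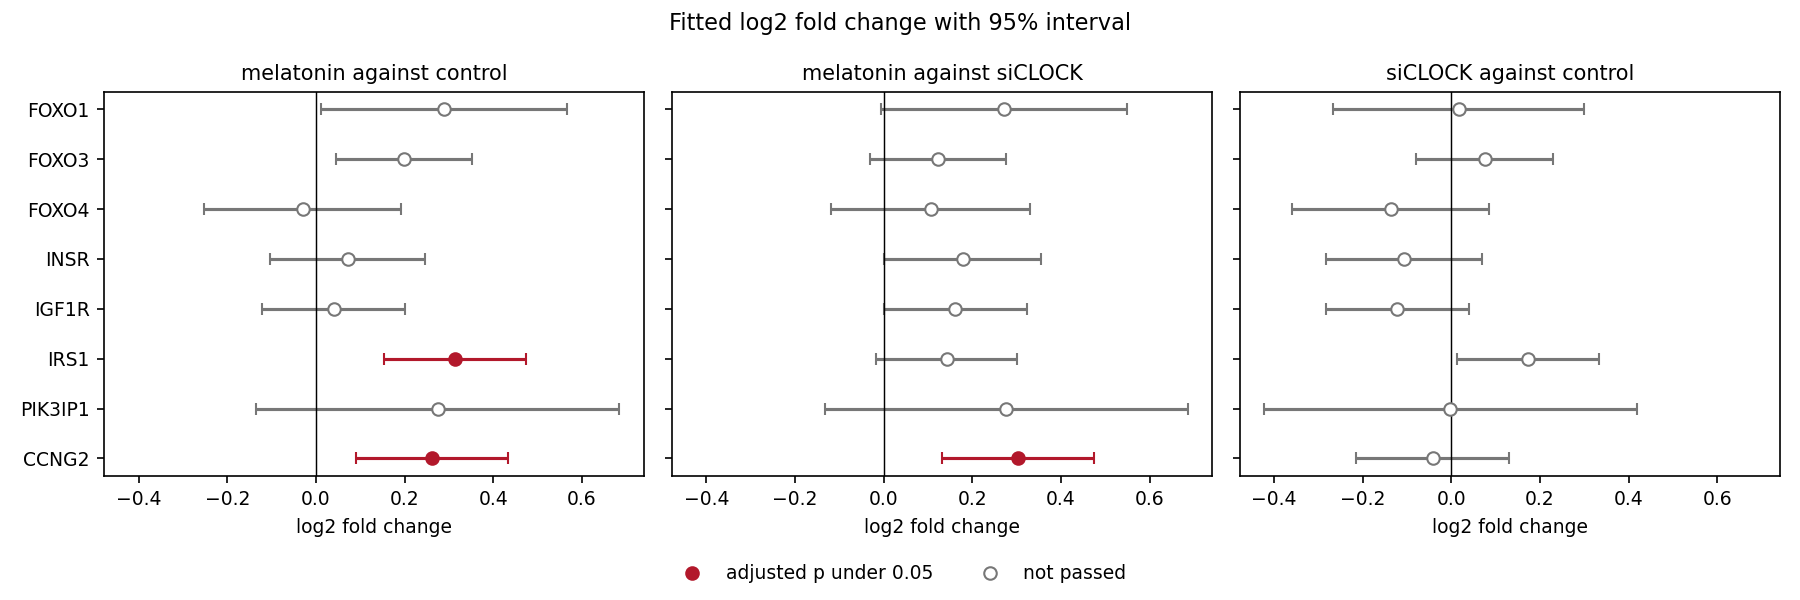
Fitted log2 fold change (x axis) with 95% interval for the 8 genes tested in each comparison, filled where the edgeR adjusted p was under 0.05. IRS1 (0.31) and CCNG2 (0.26) pass in melatonin against control, CCNG2 (0.30) passes in melatonin against siCLOCK, and no gene passes in siCLOCK against control.

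**Figure D4:**
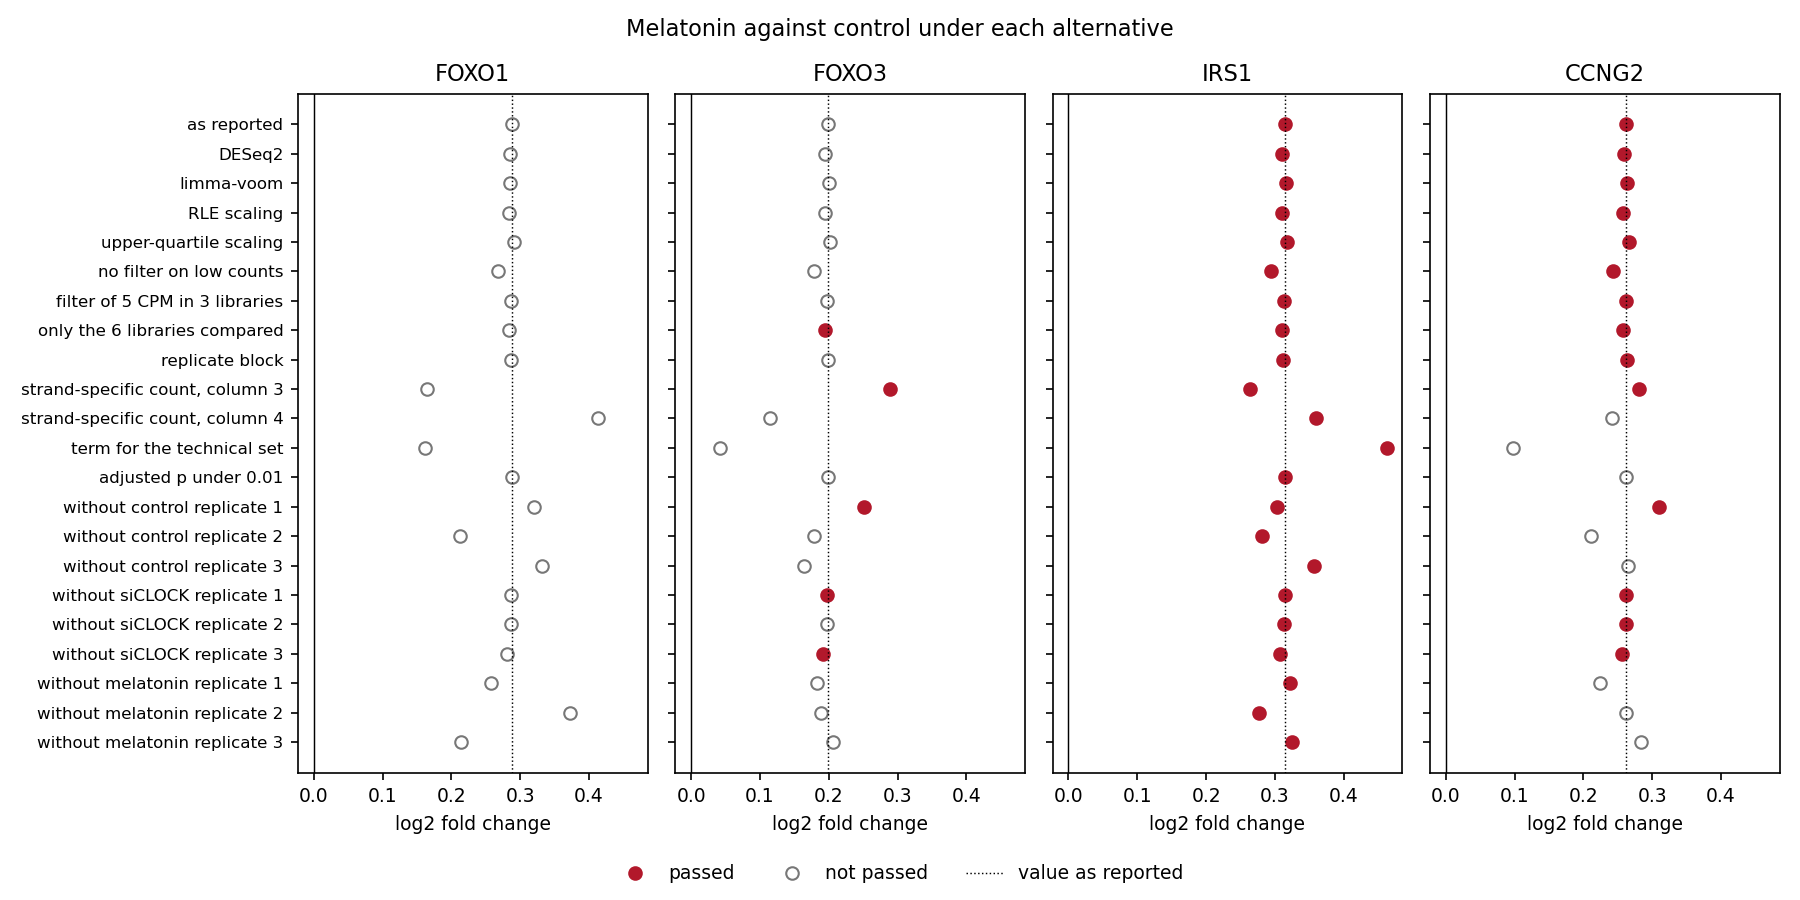
Log2 fold change of melatonin against control (x axis) for FOXO1, FOXO3, IRS1 and CCNG2 as reported and under each of 21 alternatives, filled where the adjusted p passed. IRS1 passes throughout, while CCNG2 and FOXO3 move to 0.097 and 0.042 with a term for the technical set.

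The genes closest in course over the 9 libraries were sought among 10535 protein-coding genes. Closeness was the root mean square distance between log2 CPM values centred on each gene's mean. The nearest of so many genes are close by selection, and no background distance is given. For IRS1 and CCNG2, chosen after their values were seen, the nearest genes were TPP1 (distance 0.0423), B4GAT1 (0.0445) and NCSTN (0.0445) for IRS1, and COL4A3BP (0.0128), SERINC3 (0.0289) and C11orf74 (0.0336) for CCNG2. COL4A3BP averaged 40.7 CPM in melatonin libraries, 33.2 in siCLOCK libraries and 34.1 in controls. The log2 CPM of IRS2, TXNIP and PIK3IP1 varied most of the 10, but it rests on at most 3 reads per library for IRS2 and TXNIP and on 35 to 63 for PIK3IP1, and no neighbours are named for them.

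The rest of the pathway was described with 8 lists of genes around these 10, also chosen with earlier results of these data known. With melatonin against control, 37 of the 142 listed genes tested passed (26.1%), near the 23.1% of all genes. Of the 37, 19 were higher (13.4%) and 18 lower (12.7%), beside 11.0% higher and 12.1% lower of all genes. With a term for the technical set 8 of these 37 passed: PIK3R3, TSC1, KLF6, CITED2, CDK2, YWHAQ, FOXM1 and SREBF1. The other calls among the 37 were lost with that term. Most lists held genes of both directions.

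In the list of IGF ligands and binding proteins, 6 of 13 genes were tested. Their median log2 fold change with melatonin against control was -0.52. IGF2, the only ligand among the 6, had 0.167 CPM in melatonin libraries and 0.301 in controls, and did not pass (edgeR adjusted p = 0.339). IGFBP6, a binding protein that prefers IGF2, fell to 4.25 ± 0.617 CPM in melatonin libraries, against 7.07 ± 1.22 in controls (SD, n = 3 each, edgeR adjusted p = 0.00185). IGF2R, the clearance receptor for IGF2, rose by 0.26 on the log2 scale (adjusted p = 0.00323). Among 18 adaptors and receptor regulators none rose and 2 fell (11.1%), while the list median was 0.0096. The 2 were PTPRF, a receptor phosphatase that can act on the insulin receptor (-0.45), and TRIB3, a pseudokinase that binds AKT (-0.74). With the technical set, log2 fold changes were -0.68 for IGFBP6, 0.31 for IGF2R, -0.25 for PTPRF and -0.48 for TRIB3, with edgeR adjusted p from 0.0771 to 0.217.

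Of 33 genes of the PI3K, AKT and mTOR core, 5 rose (15.2%) and 4 fell (12.1%), with a median of 0.067. PIK3R3, a regulatory subunit of PI3K, averaged 47.5 ± 1.73 CPM in melatonin libraries and 33.4 ± 3.95 in controls (SD, n = 3 each), a log2 fold change of 0.51 (edgeR adjusted p = 0.000234). TSC1, part of the complex that restrains mTORC1, rose by 0.34, and PDPK1, the kinase that activates AKT, rose by 0.31. EIF4EBP1, a translation repressor that mTORC1 switches off, fell by 0.69 on the log2 scale. On the same scale RHEB, the small GTPase that activates mTORC1, fell by 0.35 and SGK1, a kinase that phosphorylates FOXO3, fell by 0.38. With the technical set SGK1 was at -0.12 (adjusted p = 0.703) and EIF4EBP1 at -0.36 (0.102), while RHEB at -0.38 (0.0589) and PDPK1 at 0.38 (0.0927) kept their size but did not pass.

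Among 25 other genes known as FOXO targets, 6 rose (24%) and 2 fell (8%) with melatonin, and the median was -0.036. CITED2, a transcriptional co-regulator, rose by 0.45 on the log2 scale (SE 0.066, edgeR adjusted p = 8.9e-05), to 168 CPM in melatonin libraries, against 123 in controls. KLHL24 rose by 0.49 and GABARAPL1, which acts in autophagosome formation, by 0.29. KLF6, a zinc finger factor, fell by 0.61 and GADD45A, a stress-induced growth restraint, fell by 0.41. With the technical set KLHL24 was at 0.076 (adjusted p = 0.864), GABARAPL1 at 0.21 (0.333) and GADD45A at -0.33 (0.111).

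Of 25 regulators and partners of FOXO factors, 1 rose (4%) and 7 fell (28%), with a median of -0.077. Of all genes 11.0% were called higher and 12.1% lower. FOXM1, a forkhead factor of cycling cells, fell to 234 ± 2.68 CPM in melatonin libraries, against 369 ± 34.3 in controls (SD, n = 3 each, edgeR adjusted p = 1.5e-06). CDK2, which can phosphorylate FOXO1, fell by 0.53 on the log2 scale, and YWHAQ, a 14-3-3 protein, fell by 0.40. EP300, an acetyltransferase that binds FOXO factors, rose by 0.27, and with the technical set it was at 0.37 (adjusted p = 0.0838).

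TXNIP itself was not detectable, but its arrestin relatives were measured. Of the 16 TXNIP partners and Mondo factors, 4 rose (25%) and 1 fell (6.25%), with a median of -0.0091. ARRDC3 averaged 168 ± 7.77 CPM in melatonin libraries and 122 ± 18.4 in controls (SD, n = 3 each), a log2 fold change of 0.47 (edgeR adjusted p = 0.00230). ARRDC4, like TXNIP a known target of Mondo factors, averaged 4.001 ± 0.599 CPM in melatonin libraries and 2.45 ± 0.0880 in controls (log2 fold change 0.71, adjusted p = 0.0200), and with a term for the technical set it was 0.065 (adjusted p = 0.950). TXNRD1, thioredoxin reductase, rose by 0.32, and NLRP3, an inflammasome sensor that TXNIP can bind, fell to 0.866 CPM in melatonin libraries, against 1.74 in controls. With the technical set TXNRD1 was at 0.046 (adjusted p = 0.910), ARRDC3 at 0.20 (0.532) and NLRP3 at -0.95 (0.280).

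Among 14 insulin-responsive metabolic genes, SREBF1, the gene of the lipogenic factor SREBP1, fell by 0.56 on the log2 scale (edgeR adjusted p = 1.2e-05), and SCD, a fatty acid desaturase, rose by 0.24 (adjusted p = 0.0286) although its melatonin and control libraries overlapped. The median of that list was -0.13. Of 5 genes tested in the list around G-type cyclins, CCNI rose by 0.22 and the other 4 did not pass. These were the related cyclin CCNG1 and the non-cyclins GAK, PPP2R5B and PPP2R5C. With the technical set CCNI was at 0.10 (adjusted p = 0.668) and SCD at 0.26 (0.292).

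**Figure D5:**
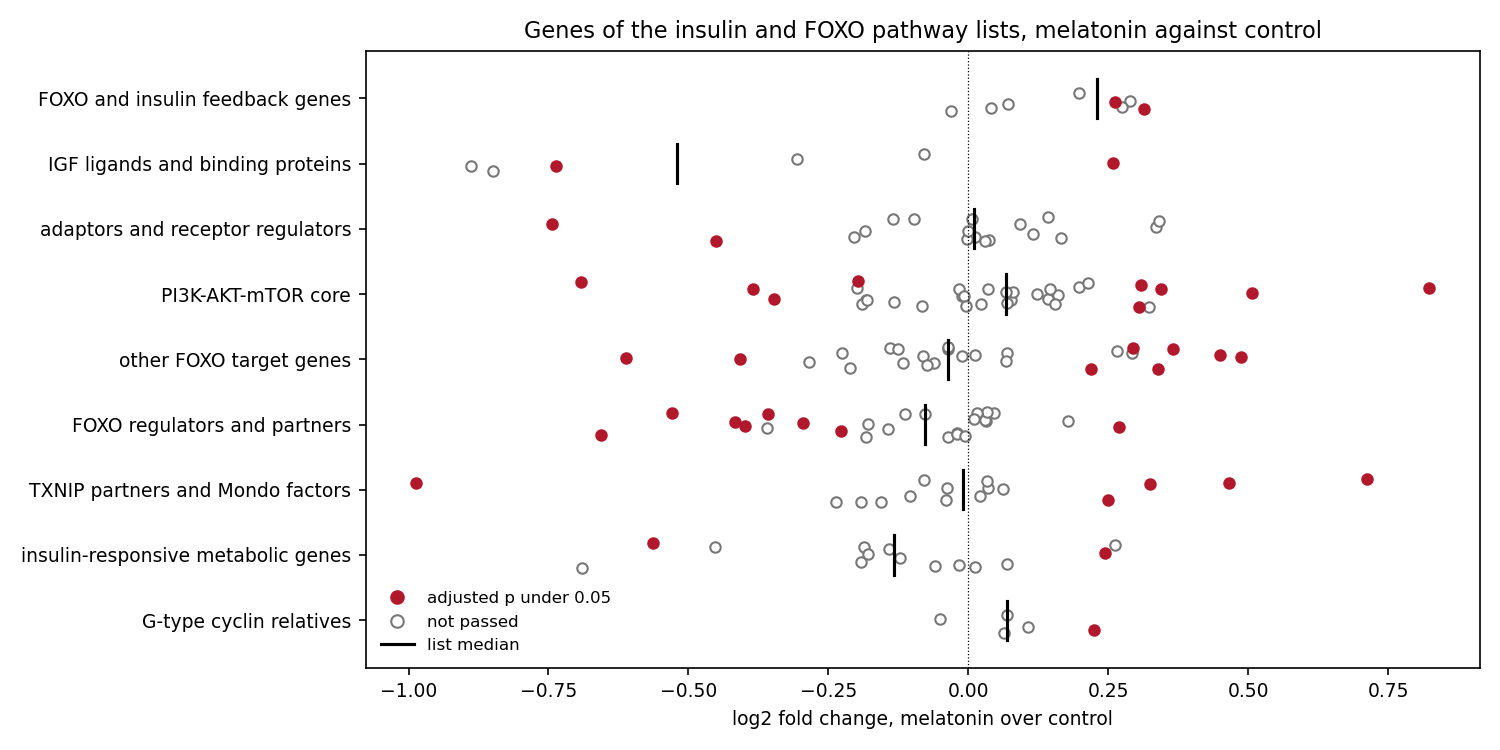
Log2 fold change of melatonin against control (x axis) for each gene tested in the FOXO and insulin feedback genes (top) and the 8 pathway lists, filled where the adjusted p was under 0.05, with a bar at the list median. The feedback genes have a median of 0.23 and no filled point below 0, while the FOXO regulators and partners have 7 filled points below 0 and 1 above.

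With melatonin against siCLOCK, 39 of 142 listed genes passed (27.5%), 19 higher (13.4%) and 20 lower (14.1%), beside 17.5%, 7.43% and 10.1% of all genes. Among these was IGFBP6 (-0.71) of the list of ligands and binding proteins. Of the adaptors, SOCS3 (0.37), a feedback inhibitor of receptor signalling, GAB1 (0.49), PTPRF (-0.36) and SH2B3 (-0.21) passed. IGF2 passed as lower, at 0.167 CPM in melatonin libraries, about the level of 3 reads, and 0.819 in siCLOCK libraries. The core list had 6 higher and 4 lower, led by EIF4EBP2 (0.51), PIK3R3 (0.44), TSC1 (0.22), SGK1 (-0.76), EIF4EBP1 (-0.71) and RHEB (-0.27). The FOXO target list had 6 higher and 4 lower, led by KLHL24 (0.62), SESN1 (0.47), the catalase gene CAT (0.27), KLF6 (-0.61), CDKN1A (-0.34) and BNIP3 (-0.34), all as log2 fold changes.

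The FOXO regulators again had 1 higher, EP300 (0.20), and 6 lower, with FOXM1 (-0.47), CDK2 (-0.46) and YWHAQ (-0.45) leading. TXNRD1 (0.45), ARRDC3 (0.40), ARRDC4 (0.79) and CCNI (0.30) were higher than in siCLOCK libraries, and NLRP3 (-1.10) and SREBF1 (-0.64) were lower. Of these 39 genes 11 passed with a term for the technical set: IGF2, SOCS3, PIK3R3, SGK1, EIF4EBP1, EIF4EBP2, KLF6, CDK2, YWHAQ, FOXM1 and SREBF1. Among the genes that did not pass, GAB1 was at 0.13 (edgeR adjusted p = 0.654), PTPRF at -0.22 (0.143), KLHL24 at 0.36 (0.120), CDKN1A at -0.18 (0.273), TXNRD1 at 0.27 (0.193), ARRDC3 at 0.23 (0.299) and ARRDC4 at 0.40 (0.416). Others that did not pass kept about their size or grew. Among them were RHEB at -0.30 (0.0524), IGFBP6 at -0.67 (0.0577), TSC1 at 0.27 (0.0616), BNIP3 at -0.31 (0.100), EP300 at 0.27 (0.102) and NLRP3 at -1.07 (0.108).

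With siCLOCK against control, 1 of 142 listed genes passed (0.704%, beside 0.122% of all genes). TRIB3 fell to 17.5 ± 1.804 CPM in siCLOCK libraries, against 26.9 ± 4.95 in controls (SD, n = 3 each), a log2 fold change of -0.62 (edgeR adjusted p = 0.0425). The number of listed genes called was 0 without control replicate 1 or 2, siCLOCK replicate 2 or any 1 melatonin library. Without siCLOCK replicate 1 it was 3, and without the library labelled siCLOCK replicate 3 it was 4. With a term for the technical set it was also 4: TRIB3 (-0.54) with SGK1 (0.46), CDKN1A (0.35) and CITED2 (0.33).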

How the data were processed

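Total RNA of 9 H1299 libraries was sequenced paired-end on a BGIseq500 instrument, per the labels' protocols. The authors deposited raw counts per gene made with STAR 2.7.9a on GRCh38 (hg38), per the submitters' processing notes. The annotation is not given in the sources used here, and all 58721 identifiers matched GENCODE release 29. Summary lines (unmapped, multimapping, no feature, ambiguous), 20.3% to 21.8% of each file, were left out. Strand totals had ratios of 1.01 to 1.05, so counts regardless of strand were used.

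Differences were tested with edgeR 4.0.16 (R 4.3.3). A filter on low counts (filterByExpr) left 16441 genes. After TMM scaling, the quasi-likelihood fit took in the 9 libraries with their 3 groups, at a biological coefficient of variation of 0.0682. The groups shared 1 estimate of the spread, although libraries within a group differed unequally. The chi-square per degree of freedom between 2 libraries was 1.69 to 3.22 for melatonin, 3.70 to 5.58 for control and 9.22 to 13.1 for siCLOCK. Two-sided F tests were adjusted by Benjamini-Hochberg across the 16441 genes, with 0.05 as the threshold. Alternatives used DESeq2 1.42.0, limma-voom 3.58.1, other scalings, filters and count columns, a replicate block, a term for technical sets divided at 1.8% unmapped reads, and each library left out in turn. The 10 genes and the lists were chosen with earlier results of these data known. From each list the text names, per comparison, at most 3 genes per direction with the smallest p, and genes that passed with the technical set. Similar courses were sought for the 3 of the 10 genes with the largest SD of log2 CPM and, after values were seen, for IRS1 and CCNG2, among genes with a mean of at least 5 CPM. Gene counts per library were 15384539 to 19192962. The procedure was tested on simulated data. No 2 libraries held identical values. A planned check of the cell line with a single gene is not reported here.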

Additional observations from a re-analysis of the deposited data

How the results depend on the processing

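Of 501 values of the 8 tested genes recomputed under the alternatives, 462 kept their direction and their side of the threshold, 14 lost a call, 6 gained one and 19 changed sign, none of the 19 with a call on either side. The number of these genes called with melatonin against control was 2 as reported, 3 with only the 6 libraries compared or with strand column 3, and 1 with strand column 4, a term for the technical set or an adjusted p under 0.01, and it ranged from 1 to 3 with 1 library left out. With melatonin against siCLOCK it was 1, and 0 with strand column 4, the technical set or an adjusted p under 0.01, ranging from 0 to 2 with 1 library left out. With siCLOCK against control it was 0 throughout. The cause of these changes was not tested.

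Signs changed for FOXO1 with siCLOCK against control (-0.037 with strand column 3, -0.027 with the technical set, -0.058 to 0.076 with 1 library left out) and for PIK3IP1 (0.12 with strand column 4, 0.12 with the technical set, -0.095 to 0.11 with 1 library left out). CCNG2 ranged from -0.10 to 0.036 in that comparison with 1 library left out. With melatonin against control, FOXO4 was 0.13 with the technical set and -0.11 to 0.018 with 1 library left out, and IGF1R was -0.038 and -0.0011 to 0.090. The log2 ratio of FOXO1 to FOXO3 was 0.087 for melatonin against control as reported, -0.12 with strand column 3 and 0.29 with strand column 4, and 0.15 for melatonin against siCLOCK, -0.028 and 0.32. The ratio of IRS2 to IRS1 was not run, since IRS2 was at or under 3 reads.

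Listed genes called were 37 with melatonin against control (8 with the technical set, 26 to 54 with 1 library left out), 39 with melatonin against siCLOCK (12 and 23 to 49) and 1 with siCLOCK against control (4 and 0 to 4). Over all genes, the technical set gave 770 calls against 3790 as reported with melatonin against control, 961 against 2876 with melatonin against siCLOCK, and 116 against 20 with siCLOCK against control, where DESeq2 gave 69, no filter 211, a filter of 5 CPM in 3 libraries 5, and leaving out 1 library 2 to 107.

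Same-numbered libraries did not deviate together (correlations -0.092 to 0.063, against -0.12 to 0.13 for different-numbered ones). No pairing by number was seen, but 3 libraries per group are too few to exclude it. The replicate block left 2, 1 and 0 of the 8 genes called, with 3533, 2712 and 12 calls over all genes in the same order of comparisons, and PIK3IP1 with siCLOCK against control became 0.00023. Depth limits PIK3IP1 and FOXO1 most among the genes tested, and IRS2 and TXNIP entirely.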
